A study of Mus musculus with 19 samples.

Results

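The Shh gene desert is the long stretch between Shh and Rnf32 on mouse chromosome 5, and its interior is described here through the contacts that its own segments made with each other. The members are all pairs of 10-kb bins with both bins between 28890001 and 29520000 of chromosome 5 (mm9), which is 100 to 720 kb above the bin of the Shh promoter (28790001 to 28800000), and with bin starts at least 30 kb apart. This rule gave 63 bins and 1830 pairs, of 39340 pairs among the 280 bins of the captured region. The rule uses positions only, but it was set with earlier results of these data known. In the RefSeq gene order of a later assembly (GRCm38.p6) the interval between Shh and Rnf32 held 0 protein-coding genes, 4 long non-coding RNA genes (9530036O11Rik, Gm42243, Gm35688 and Gm35881) and 2 pseudogenes (Gm10290 and Gm52839).

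Capture Hi-C, in which ligated chromatin fragments are enriched with probes for one locus and sequenced, was performed on 19 samples in 9 groups, and the files hold 1 merged map per group. The limb bud maps, all of embryonic stage E10.5, carried the deltaCTCF i4i5 allele, the deltaCTCF i4i5ZRS allele, the deltaCTCF i4i5ZRSreg allele, the deltaZRSreg allele, or a deletion of the Lmbr1 promoter on both chromosomes, with 2 samples each in strain G4. The labels do not say which single deletions the i4i5ZRSreg allele combines, and it is grouped with the i4i5 alleles by its name. The CTCF i4 and i5 sites lie in introns of Lmbr1, beyond Rnf32 and outside the desert. The ZRS is the limb enhancer of Shh and lies in the same gene. A midbrain map of the same stage carried the deltaCTCF i4i5ZRS allele (2 samples, G4). Wild-type maps came from embryonic stem (ES) cells (2 samples, G4) and, at the same stage, from midbrain (2 samples, C57BL/6) and limb bud (3 samples, C57BL/6, of which 2 share a library number in their titles). All mutant maps and the ES cell map were therefore of strain G4, and both wild-type tissue maps were C57BL/6, so that strain and allele cannot be told apart in comparisons with wild-type tissue. The series design text calls the mutant samples technical replicates, so the samples of a mutant group may come from a single preparation.

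A gene desert is a long interval without protein-coding genes. The Shh desert carries many of the enhancers that switch on Shh, the Sonic hedgehog ligand, in brain and other tissues. The whole interval from Shh to Lmbr1 forms a single topologically associating domain. That is a block of chromatin whose segments meet each other more often than they meet the outside. Such blocks are commonly bounded by CTCF, a DNA-binding protein that halts the cohesin ring as it extrudes chromatin loops.

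With 1 merged map per group there is no replicate, so no test was made and no p-value is given. Each map was balanced by the authors, and the contact counts behind it were recovered: a map held 1177173 contacts (limb i4i5) to 3218492 (ES cells), of which the desert pairs took 120574 to 337571. The median desert pair had 48 to 129 contacts. The intervals given are 95% counting intervals from those contacts; they compare these libraries, leave out the error of the expected value, and cover counting error only, since the protocols name no molecular identifiers that would tell copies of a molecule apart. An observed over expected value sets a pair's balanced signal against the average pair of that map with the same separation, so that 1 is the average of the captured region. Values were averaged over pairs, and an SD over pairs or bins describes the spread of members, not replicate error.

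Averaged over all pairs kept, desert segments met each other more often than the average of the region. The mean observed over expected of the 1830 pairs was 1.141 (1.131 to 1.152) for limb i4i5, 1.177 (1.168 to 1.185) for limb i4i5ZRS, 1.163 (1.155 to 1.170) for limb i4i5ZRSreg, 1.212 (1.204 to 1.220) for limb ZRSreg and 1.217 (1.210 to 1.224) for limb with the Lmbr1 promoter deletion. It was 1.209 (1.2004 to 1.217) in midbrain i4i5ZRS, 1.203 (1.196 to 1.210) in ES cells, 1.216 (1.208 to 1.225) in wild-type midbrain and 1.177 (1.170 to 1.184) in wild-type limb. The SD over pairs was 0.268 to 0.330 in each map, and 63.1% to 76.0% of pairs lay above 1. The mean over all desert pairs was thus above the region's average in every tissue and allele, and the 9 means ran from 1.141 to 1.217. This did not hold at all separations, as described next. The SD over pairs includes the trend with separation and counting error, so it is no yardstick for differences between these means. A window of the same 63 bins just below the lower border of the Shh domain averaged 1.02 to 1.14, and one just above the upper border averaged 0.959 to 1.03. The desert mean was the higher of the desert and each window in all 9 maps.

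The excess depended on how far apart the bins lay. Pairs 30 to 90 kb apart (399 pairs) averaged 0.921 to 0.960 over the 9 maps, below the region's mean. Pairs 100 to 190 kb apart (485 pairs) averaged 1.05 to 1.10, pairs 200 to 390 kb apart (670 pairs) 1.201 to 1.319, and pairs 400 to 620 kb apart (276 pairs) 1.47 to 1.67. In wild-type limb the 4 values were 0.929, 1.05, 1.24 and 1.61, and in ES cells 0.926, 1.08, 1.28 and 1.64. In other words, contact fell away with distance more slowly inside the desert than in the region at large. The slope of log signal on log separation was -0.561 to -0.672 among desert pairs, against -0.790 to -0.953 over each whole map. At the shortest separation kept, 30 kb, the mean was 0.879 to 0.922, and at 20 kb, just outside the rule, it was 0.858 to 0.906. The window below the lower border stayed at 0.987 to 1.12 for pairs 200 to 390 kb apart, and the window above the upper border at 0.857 to 0.995.

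**Figure D1:**
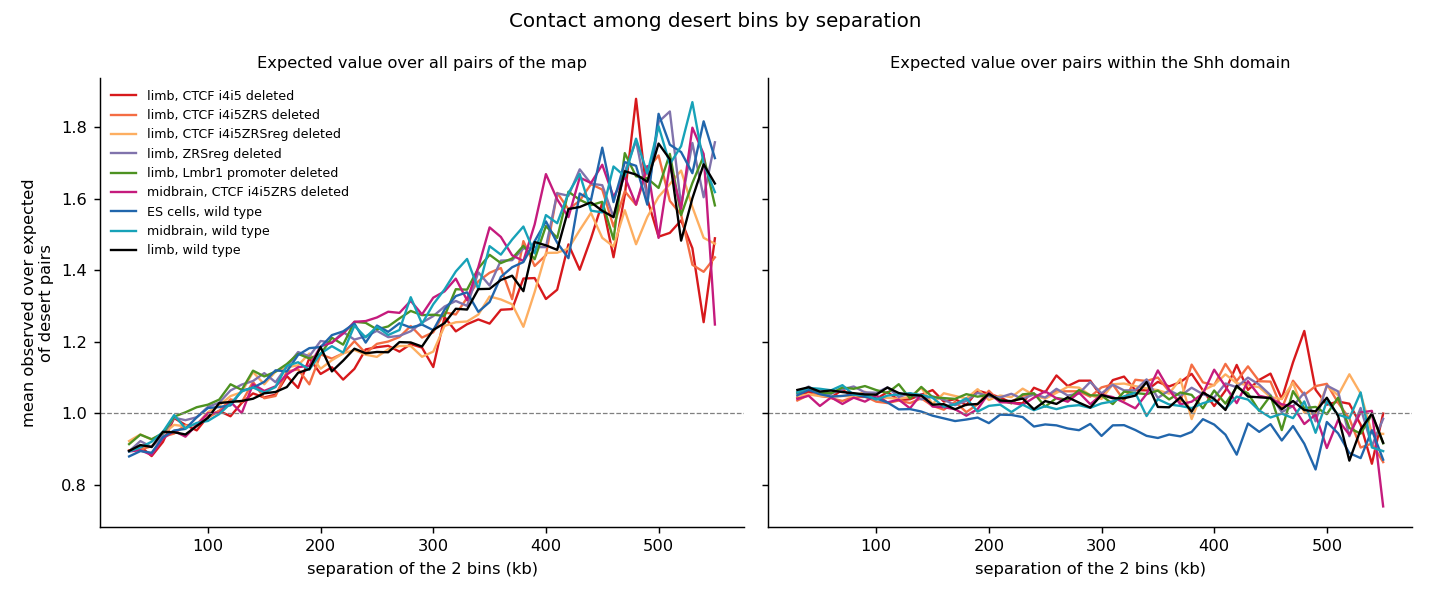
Mean observed over expected of desert pairs (vertical axis) against the separation of the 2 bins in kb (horizontal axis, drawn from 30 to 550 kb), 1 line per map. On the left, where the expected value is the mean of all pairs of a map, the lines climb from 0.879 to 0.922 at 30 kb to well above 1. On the right, where the expected value is the mean of pairs within the Shh domain, they stay near 1 and the ES cell line lies lowest over most separations.

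The climb was not seen with another expected value. At long separations the region's mean includes more pairs that cross a domain border. Of a map's pairs 30 to 90 kb apart, 5.11% spanned or touched one of the 2 borders of the Shh domain, against 45.4% of pairs 400 to 620 kb apart. When the expected value was taken from pairs within the Shh domain alone, the desert means over the 9 maps were 1.04 to 1.06, 1.00 to 1.05, 0.963 to 1.07 and 0.924 to 1.05 in the same 4 ranges of separation. On that scale desert pairs up to 90 kb apart stood slightly above the domain's own mean, and the longest pairs did not stand apart from it in a single direction. The desert pairs are themselves part of the domain's pairs, which draws these values toward 1. Over all separations the mean on that scale was 0.987 in ES cells and 1.03 to 1.06 in the other 8 maps. ES cells had the lowest value of the 9 maps.

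Position along the desert mattered less than separation only when the expected value was the region's mean. With the expected value of the Shh domain, the ranges of separation spanned 0.924 to 1.07 over the 9 maps. That span includes differences between maps. Within wild-type limb the ranges of separation ran from 1.01 to 1.06, and parts of the desert at equal separation, described below, from 0.947 to 1.04. In limb i4i5 they ran from 1.04 to 1.07 and from 0.922 to 1.07. In ES cells the 2 spans were similar, at 0.924 to 1.05 and 0.933 to 1.05. The desert was divided into 3 equal parts, a lower part next to Shh (100 to 300 kb above the promoter bin), a middle part (310 to 510 kb) and an upper part next to Rnf32 (520 to 720 kb), each of 21 bins. Pairs with both bins in one of them averaged 0.942 to 1.02 in the lower part, 0.953 to 0.993 in the middle part and 0.927 to 0.984 in the upper part over the 9 maps. Pairs of the lower with the middle part averaged 1.19 to 1.24, pairs of the middle with the upper part 1.027 to 1.146, and pairs of the lower with the upper part 1.41 to 1.58. To set position apart from separation, each pair was also divided by the mean of desert pairs at the same separation. Middle with upper pairs were then the lowest combination in 8 of 9 maps (the exception is wild-type midbrain), at 0.916 to 0.975, and lower with middle pairs stood at 1.03 to 1.07. Pairs within one part stood at 0.966 to 1.027 in the lower, 0.974 to 1.00 in the middle and 0.957 to 1.005 in the upper part.

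On the same scale single bins differed in a way that recurred from map to map. Of the 63 bins, 15 lay above the desert mean in all 9 maps and 16 lay below it in all 9. The bin at 580 kb (29370001 to 29380000) had the highest mean over the maps, 1.148, with a range of 1.097 to 1.203, and it was the highest bin of 6 maps. The bin at 110 kb (28900001 to 28910000) was highest in limb i4i5ZRSreg at 1.11 and in limb ZRSreg at 1.13, and the bin at 130 kb (28920001 to 28930000) in wild-type limb at 1.16. The lowest bins were those at 700 kb (29490001 to 29500000; 0.829 to 0.921), 710 kb (29500001 to 29510000; 0.837 to 0.938), 120 kb (28910001 to 28920000; 0.833 to 0.981) and 620 kb (29410001 to 29420000; 0.897 to 0.916). The bin at 700 kb was the lowest of limb i4i5ZRS (0.829), limb i4i5ZRSreg (0.837) and limb with the Lmbr1 promoter deletion (0.872), and the bin at 710 kb of limb i4i5 (0.838) and midbrain i4i5ZRS (0.843). The bin at 120 kb was the lowest of limb ZRSreg (0.853), ES cells (0.833) and wild-type limb (0.891), and the bin at 620 kb of wild-type midbrain (0.911).

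Some of these bins rest on few contacts. The bins at 120, 580 and 710 kb held 15.8% to 18.5%, 22.0% to 31.3% and 21.2% to 26.8% of the desert's median contacts per bin, and their part in the profile was not tested. Across the 63 bins of a map, the number of contacts and the profile had a Spearman correlation of -0.090 to 0.058. The low bin at 620 kb held 130% to 154% of the median contacts. Its neighbour at 630 kb held 36.5% to 42.9% and stood at 1.04 to 1.10 over the desert mean. The profile of 63 bins correlated between maps with a Pearson coefficient of 0.686 to 0.936 (median 0.861 over the 36 pairs of maps). The bins share probes and restriction sites in all maps, which this coefficient includes.

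**Figure D2:**
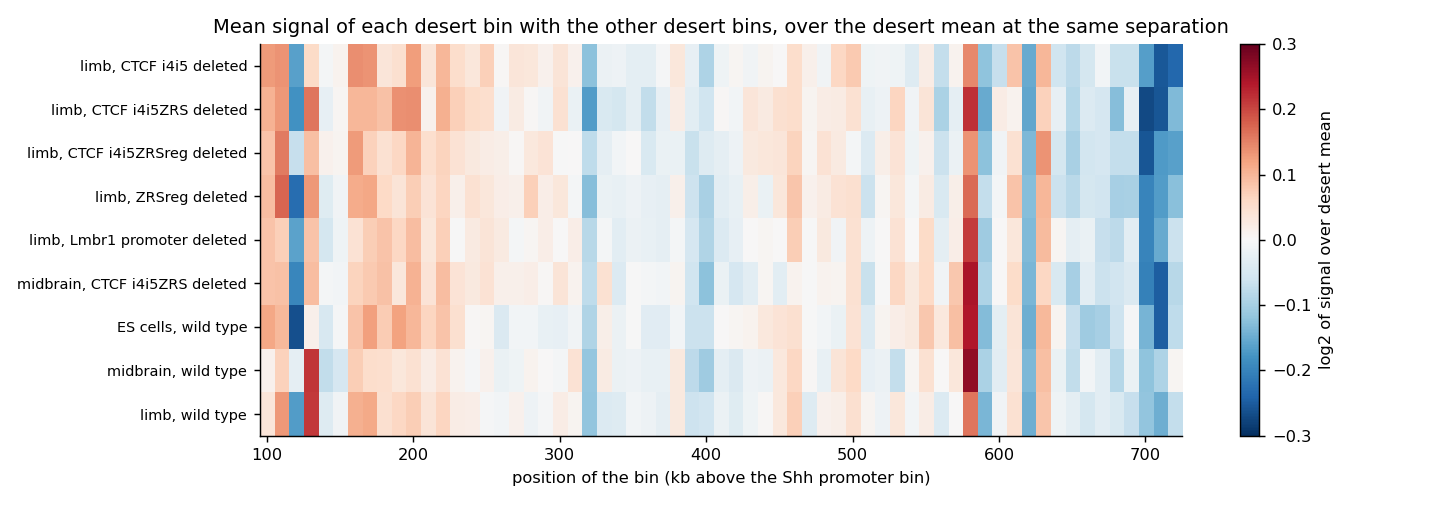
Log2 of the mean signal of each desert bin with the other desert bins over the desert mean at the same separation (colour), for 9 maps (rows) along 63 bins (kb above the Shh promoter bin). The bin at 580 kb is high in all 9 maps, the bins at 120, 320, 590, 620, 700 and 710 kb are low in all 9, and rows resemble each other.

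Counting error made up much of the spread of single pairs. The SD of pairs around the desert mean at their separation was 0.144 to 0.202, and counting alone would give 0.109 to 0.182, which leaves 0.083 to 0.120 beyond counting. In ES cells the part beyond counting (0.120) was larger than that from counting (0.109). Pairs were therefore read as 3 by 3 bin means, which at the desert's ends also take in the next bin outside it. In wild-type limb the highest such values at 100 kb or more were 2.04 (1.86 to 2.24; 502 contacts) for the bins at 160 and 640 kb, 2.00 (1.78 to 2.23; 412 contacts) for 100 and 700 kb, and 1.99 (1.77 to 2.22; 398 contacts) for 100 and 580 kb. All 3 join the lower part with the upper part, as any desert pair with these separations must. The lowest in wild-type limb were 0.889 for the bins at 500 and 600 kb, 0.918 for 440 and 550 kb, and 0.937 for 580 and 680 kb, all at 100 to 110 kb. In ES cells the highest values were 2.17 (1.94 to 2.42) for the bins at 140 and 720 kb, 2.06 for 120 and 650 kb, and 2.06 for 100 and 570 kb. In wild-type midbrain they were 2.27 (1.85 to 2.76; 154 contacts) for 120 and 600 kb, 2.10 for 120 and 690 kb, and 2.01 for 170 and 580 kb. In the 6 mutant maps the single highest values were 2.08 for 140 and 620 kb (limb i4i5), 2.19 for 130 and 590 kb (limb i4i5ZRS), 1.97 for 100 and 600 kb (limb i4i5ZRSreg), 2.23 for 100 and 620 kb (limb ZRSreg), 2.02 for 140 and 640 kb (limb, Lmbr1 promoter deletion) and 2.13 for 100 and 560 kb (midbrain i4i5ZRS). The top pair of every map joined a bin at 100 to 160 kb with one in the upper part, but the exact bins differed and their intervals were wide. These top pairs were 460 to 580 kb apart, in the range where values on this scale were highest. Position and separation cannot be told apart in them.

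No strong border was seen inside the desert. Contact across a bin was measured as the mean signal between the 5 bins below and the 5 bins above it, relative to the desert mean at the same separations, on a log2 scale. Over the 53 bins where both squares lie in the desert (150 to 670 kb), the value ran from -0.194 to 0.127 in all 9 maps. The same measure at the 2 borders of the Shh domain was -1.16 to -0.966 at the lower border (30 kb below the promoter bin) and -0.653 to -0.394 at the upper border (910 kb above it). The deepest point in the desert lay at 590 kb in limb i4i5 (-0.189, half-width of the interval 0.103) and limb i4i5ZRS (-0.125, 0.071), and at 580 kb in limb i4i5ZRSreg (-0.139, 0.058), limb with the Lmbr1 promoter deletion (-0.105, 0.051) and midbrain i4i5ZRS (-0.194, 0.061). It lay at 520 kb in limb ZRSreg (-0.089, 0.039) and wild-type limb (-0.109, 0.038), at 430 kb in wild-type midbrain (-0.109, 0.032), and at 160 kb in ES cells (-0.169, 0.044). The dip at 580 kb was also present, in ES cells (-0.164, 0.050), where it was nearly as deep as that at 160 kb, in limb ZRSreg (-0.068), wild-type midbrain (-0.096) and wild-type limb (-0.081). The square across 580 kb includes the poorly covered bins at 590, 600 and 610 kb, and their part in the dip was not tested.

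**Figure D3:**
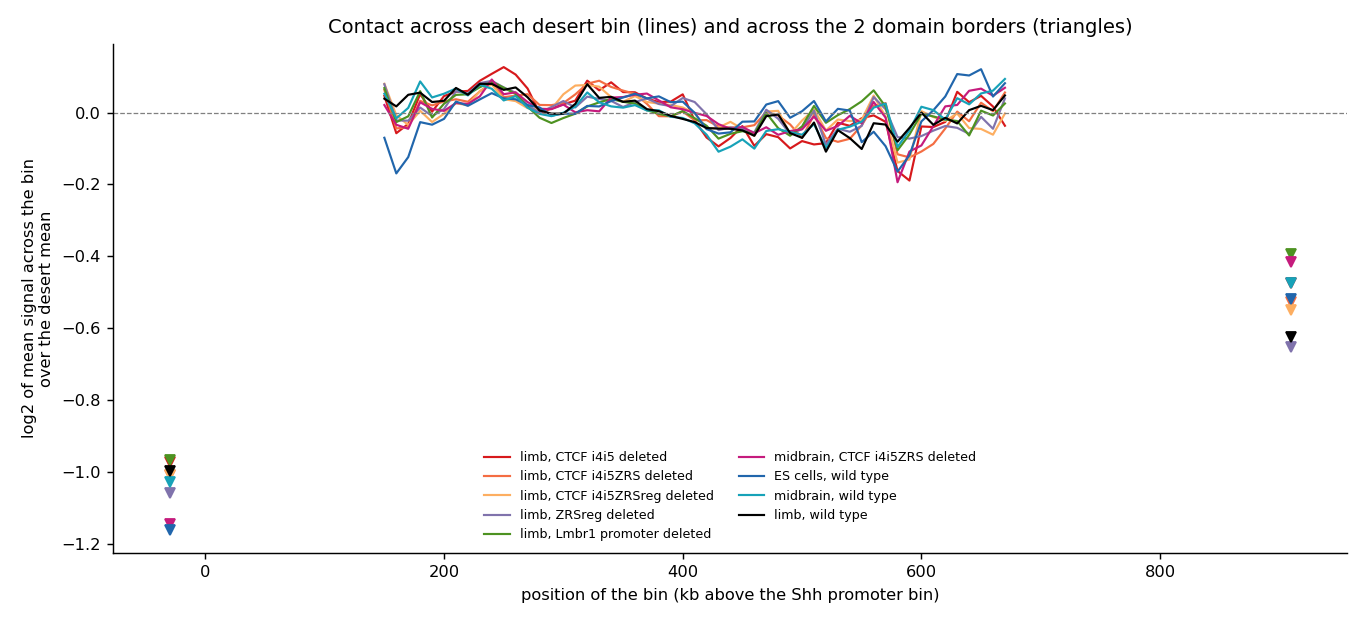
Log2 of the mean signal across each bin over the desert mean (vertical axis), along the desert in kb above the Shh promoter bin (lines, 150 to 670 kb), with the same measure at the 2 borders of the Shh domain (triangles), for 9 maps. The lines stay between -0.194 and 0.127, above every triangle, and ES cells dip at 160 kb and at 580 kb.

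Wild-type midbrain and wild-type limb, which differ in whether the limb enhancer of Shh is in use, had nearly the same desert. The desert mean was 1.22 in midbrain and 1.18 in limb, a log2 ratio of 0.048 (0.035 to 0.061), and 58 of 63 bins were higher in midbrain. The SD of that log2 ratio over bins was 0.046. The ratio was 0.017 for pairs 30 to 90 kb apart, 0.015 at 100 to 190 kb, 0.075 at 200 to 390 kb and 0.059 (0.015 to 0.103) at 400 to 620 kb. Its sign turned to -0.009 with the expected value of the Shh domain and to -0.036 when signal was scaled to the map total alone, so that no direction holds for it. Of the 1830 pairs, 2 (0.109%) were past 1.2-fold lower and 46 (2.51%) past 1.2-fold higher in midbrain as 3 by 3 bin means, while of all 14730 pairs 30 to 620 kb apart in the captured region 11.1% were lower and 7.71% higher. The bin with the largest difference was the poorly covered one at 120 kb, at 1.36 in midbrain and 1.16 in limb (log2 ratio 0.240, 0.082 to 0.398).

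ES cells showed a line of lower contact at the Shh end of the desert. The desert mean was 1.203 in ES cells and 1.177 in wild-type limb (log2 ratio 0.032, 0.020 to 0.044; 50 of 63 bins higher), and it turned to -0.073 with the expected value of the Shh domain. For pairs 400 to 620 kb apart the log2 ratio was 0.031 (-0.009 to 0.072), and it turned to -0.128 with the expected value of the Shh domain and to -0.187 with signal scaled to the map total. The pairs of the bins at 120 to 140 kb with those at 170 to 550 kb (117 pairs, chosen after the maps were seen) averaged 1.06 (1.04 to 1.09) in ES cells and 1.21 (1.18 to 1.24) in wild-type limb, a log2 ratio of -0.189 (-0.242 to -0.135). Of these pairs 28 of 117 were higher in ES cells. The ratio was -0.183 without the poorly covered bin at 120 kb and -0.307 with the expected value of the Shh domain. The same pairs averaged 1.09 for limb i4i5, 1.17 for limb i4i5ZRS, 1.17 for limb i4i5ZRSreg, 1.18 in limb ZRSreg, 1.17 in limb with the Lmbr1 promoter deletion, 1.19 in midbrain i4i5ZRS and 1.24 in wild-type midbrain, so that ES cells were the lowest of the 9 maps on this scale. Limb i4i5 was the next lowest, and its interval of 1.05 to 1.14 overlaps that of ES cells. As an unbalanced share of each map's contacts, ES cells were not the lowest: the log2 ratio of that share over wild-type limb was -0.400 in ES cells, against -0.462 for limb i4i5ZRS and -0.452 for limb with the Lmbr1 promoter deletion. The dip in contact across 160 kb overlaps these pairs in part: it was -0.169 in ES cells and 0.017 in wild-type limb. Past 1.2-fold, 1.75% of desert pairs were lower and 1.64% higher in ES cells, against 26.6% and 16.4% of all pairs of the region at 30 to 620 kb. Among pairs 200 kb or more apart, 2.01% of desert pairs were lower and 2.54% higher, against 30.9% and 19.4% of all pairs. Strain and cell type change together here and cannot be told apart.

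Limb with the 2 CTCF sites i4 and i5 deleted differed little from wild-type limb in the desert's mean contact. These 2 maps differ in strain as well as in allele, and the part of each cannot be told apart. The G4 limb maps with the ZRSreg and the Lmbr1 promoter deletion averaged 1.212 and 1.217. The desert mean was 1.14 in limb i4i5 and 1.18 in wild-type limb, a log2 ratio of -0.044 (-0.060 to -0.028) with an SD over bins of 0.059, and 12 of 63 bins were higher. The ratio turned to 0.023 with the expected value of the Shh domain and to 0.006 without balancing. The window below the lower border had a ratio of -0.001 and the window above the upper border -0.051. The difference sat at long range. For pairs 400 to 620 kb apart the mean was 1.47 (1.42 to 1.52) in limb i4i5 and 1.61 (1.57 to 1.64) in wild-type limb, a log2 ratio of -0.128 (-0.182 to -0.074), and 3 of 23 separations were higher. For pairs 30 to 90 kb apart the ratio was -0.001 (-0.021 to 0.019). The long-range value turned to 0.050 with the expected value of the Shh domain, so it is lower relative to the whole region and not relative to the domain. Of the desert pairs 5.08% were past 1.2-fold lower and 0.437% higher, against 7.06% and 14.1% of all pairs.

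The alleles that combine i4i5 with further deletions gave smaller overall differences. Limb i4i5ZRS averaged 1.18 and wild-type limb 1.18, with a log2 ratio of 0.000 (-0.013 to 0.014) and 36 of 63 bins higher. At 400 to 620 kb the means were 1.56 in limb i4i5ZRS and 1.61 in wild-type limb (log2 ratio -0.040, -0.086 to 0.005; 6 of 23 separations higher; 0.040 with the expected value of the Shh domain). Limb i4i5ZRSreg averaged 1.16 and wild-type limb 1.18 (-0.017, -0.030 to -0.005; 29 of 63 bins higher), and at 400 to 620 kb 1.502 and 1.606 (-0.096, -0.139 to -0.053; 1 of 23 separations higher; 0.036 with the expected value of the Shh domain). In midbrain, i4i5ZRS averaged 1.21 and wild type 1.22 (-0.009, -0.023 to 0.005; 33 of 63 bins higher), and at 400 to 620 kb 1.62 and 1.67 (-0.048, -0.095 to -0.001; 8 of 23 separations higher; -0.001 with the expected value of the Shh domain). Past 1.2-fold, limb i4i5ZRS had 2.57% of desert pairs lower and 0.984% higher (5.99% and 10.8% of all pairs), limb i4i5ZRSreg 2.57% and 0.383% (4.66% and 10.6%), and midbrain i4i5ZRS 2.62% and 0.437% (7.58% and 10.4%). In all 4 CTCF comparisons with wild type the share of desert pairs past the fold was below that of the region in both directions, but the region holds relatively more long separations. Among pairs 200 kb or more apart, 8.46% of desert pairs were lower for limb i4i5 (9.28% of all pairs), 4.12% for limb i4i5ZRS (7.90%), 4.65% for limb i4i5ZRSreg (6.29%) and 4.86% in midbrain i4i5ZRS (9.98%). Higher pairs were 0.634% (18.4%), 1.90% (14.2%), 0.211% (14.02%) and 0.846% (13.3%) in the same order.

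Relative to the region's mean, what the CTCF maps had in common lay at the upper end of the desert, next to Rnf32. The bins at 700, 710 and 720 kb, taken with the 21 bins of the lower part (63 pairs, chosen after the maps were seen), averaged 1.201 (1.115 to 1.293) for limb i4i5, 1.279 (1.206 to 1.354) for limb i4i5ZRS, 1.292 (1.224 to 1.362) for limb i4i5ZRSreg and 1.381 (1.308 to 1.456) in midbrain i4i5ZRS. They averaged 1.47 (1.40 to 1.55) in limb ZRSreg, 1.48 (1.41 to 1.54) in limb with the Lmbr1 promoter deletion, 1.47 (1.40 to 1.54) in ES cells, 1.59 (1.51 to 1.67) in wild-type midbrain and 1.51 (1.44 to 1.58) in wild-type limb. The 4 maps whose allele names include i4i5 were the 4 lowest, and 3 of them, all from limb, had intervals that did not reach those of the 5 other maps. They are called the CTCF maps here. The upper end of the interval in midbrain i4i5ZRS, 1.46, lay above the lower ends in limb ZRSreg, limb with the Lmbr1 promoter deletion, ES cells and wild-type limb, and below that in wild-type midbrain.

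As log2 ratios the upper-end pairs stood at -0.326 (-0.450 to -0.202) for limb i4i5, -0.236 (-0.342 to -0.130) for limb i4i5ZRS and -0.221 (-0.322 to -0.120) for limb i4i5ZRSreg over wild-type limb, and at -0.201 (-0.308 to -0.094) in midbrain i4i5ZRS over wild-type midbrain. Between 14 and 19 of the 63 pairs were higher in each of the 4 comparisons. The 3 limb comparisons share the wild-type limb map. With the expected value of the Shh domain the 4 ratios were -0.118, -0.136, -0.063 and -0.148, and without the poorly covered bin at 710 kb they were -0.283, -0.208, -0.262 and -0.130. For limb ZRSreg and for limb with the Lmbr1 promoter deletion, both G4, the ratios over wild-type limb were -0.033 (-0.130 to 0.063) and -0.029 (-0.122 to 0.064). Within strain G4, limb i4i5ZRSreg over limb ZRSreg gave -0.188 (-0.293 to -0.084), and -0.023 with the expected value of the Shh domain. On 2 other scales the CTCF maps did not stand alone. With the expected value of the Shh domain ES cells over wild-type limb had -0.193, below all 4 CTCF ratios. With signal scaled to the map total the 4 CTCF ratios were -0.188, -0.323, -0.219 and -0.232, while limb ZRSreg had -0.131, limb with the Lmbr1 promoter deletion -0.171 and ES cells -0.283 over wild-type limb.

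The other 18 bins of the upper part, taken with the same lower part (378 pairs), differed less. Their log2 ratios were -0.057 for limb i4i5, 0.035 for limb i4i5ZRS and -0.050 for limb i4i5ZRSreg over wild-type limb, and 0.043 in midbrain i4i5ZRS over wild-type midbrain. Within each map, the upper-end pairs over these other pairs gave a log2 ratio of -0.264 for limb i4i5, -0.267 for limb i4i5ZRS, -0.167 for limb i4i5ZRSreg and -0.227 in midbrain i4i5ZRS. The same ratio was -0.101 in limb ZRSreg, -0.074 in limb with the Lmbr1 promoter deletion, -0.101 in ES cells, 0.017 in wild-type midbrain and 0.004 in wild-type limb. On this scale the 3 other G4 maps lay between the CTCF maps and the 2 C57BL/6 maps, and in the difference from wild type strain and allele cannot be told apart. Upper-end pairs are also the longer ones. Set against the other pairs at each of the 20 shared separations (400 to 590 kb), the mean log2 ratio was -0.420 for limb i4i5, -0.401 for limb i4i5ZRS, -0.292 for limb i4i5ZRSreg and -0.356 in midbrain i4i5ZRS. It was -0.253 in limb ZRSreg, -0.269 in limb with the Lmbr1 promoter deletion, -0.314 in ES cells, -0.188 in wild-type midbrain and -0.224 in wild-type limb. The SD over separations was 0.162 to 0.360. All 9 maps were then below 0, and ES cells were lower than limb i4i5ZRSreg. The named pairs come from the same maps in which these bins were chosen, so they are no separate evidence. The lowest 3 by 3 mean against wild type lay at 120 and 710 kb in limb i4i5 (1.02, and 1.83 in wild-type limb, log2 ratio -0.840, -1.35 to -0.335, 81 and 298 contacts). It lay at 170 and 700 kb in limb i4i5ZRS (1.11 and 1.65, -0.575, -0.862 to -0.287). In limb i4i5ZRSreg it lay at 100 and 710 kb (1.32 and 1.95, -0.568, -0.826 to -0.310), and in midbrain i4i5ZRS at 160 and 720 kb (1.153 and 1.715, -0.572, -0.846 to -0.298). Against wild-type limb, the lowest pair also included the bin at 700 kb for the Lmbr1 promoter deletion (140 and 700 kb, -0.402) and wild-type midbrain (590 and 700 kb, -0.397). For limb ZRSreg (130 and 450 kb) and ES cells (520 and 660 kb) it lay elsewhere.

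**Figure D4:**
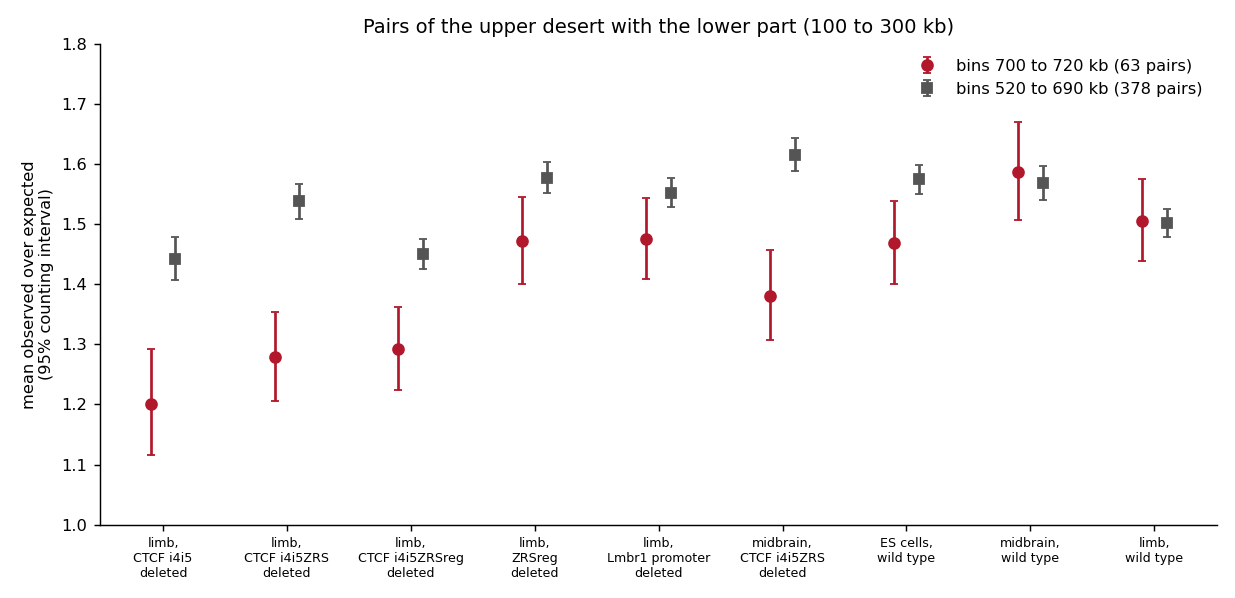
Mean observed over expected (vertical axis, starting at 1) of pairs between the lower part of the desert and either the bins at 700 to 720 kb (circles, 63 pairs) or the bins at 520 to 690 kb (squares, 378 pairs) in 9 maps, with 95% counting intervals. The circles of the 4 CTCF maps (1.201, 1.279, 1.292 and 1.381) are the lowest, and there the circle stands farthest below its square.

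**Figure D5:**
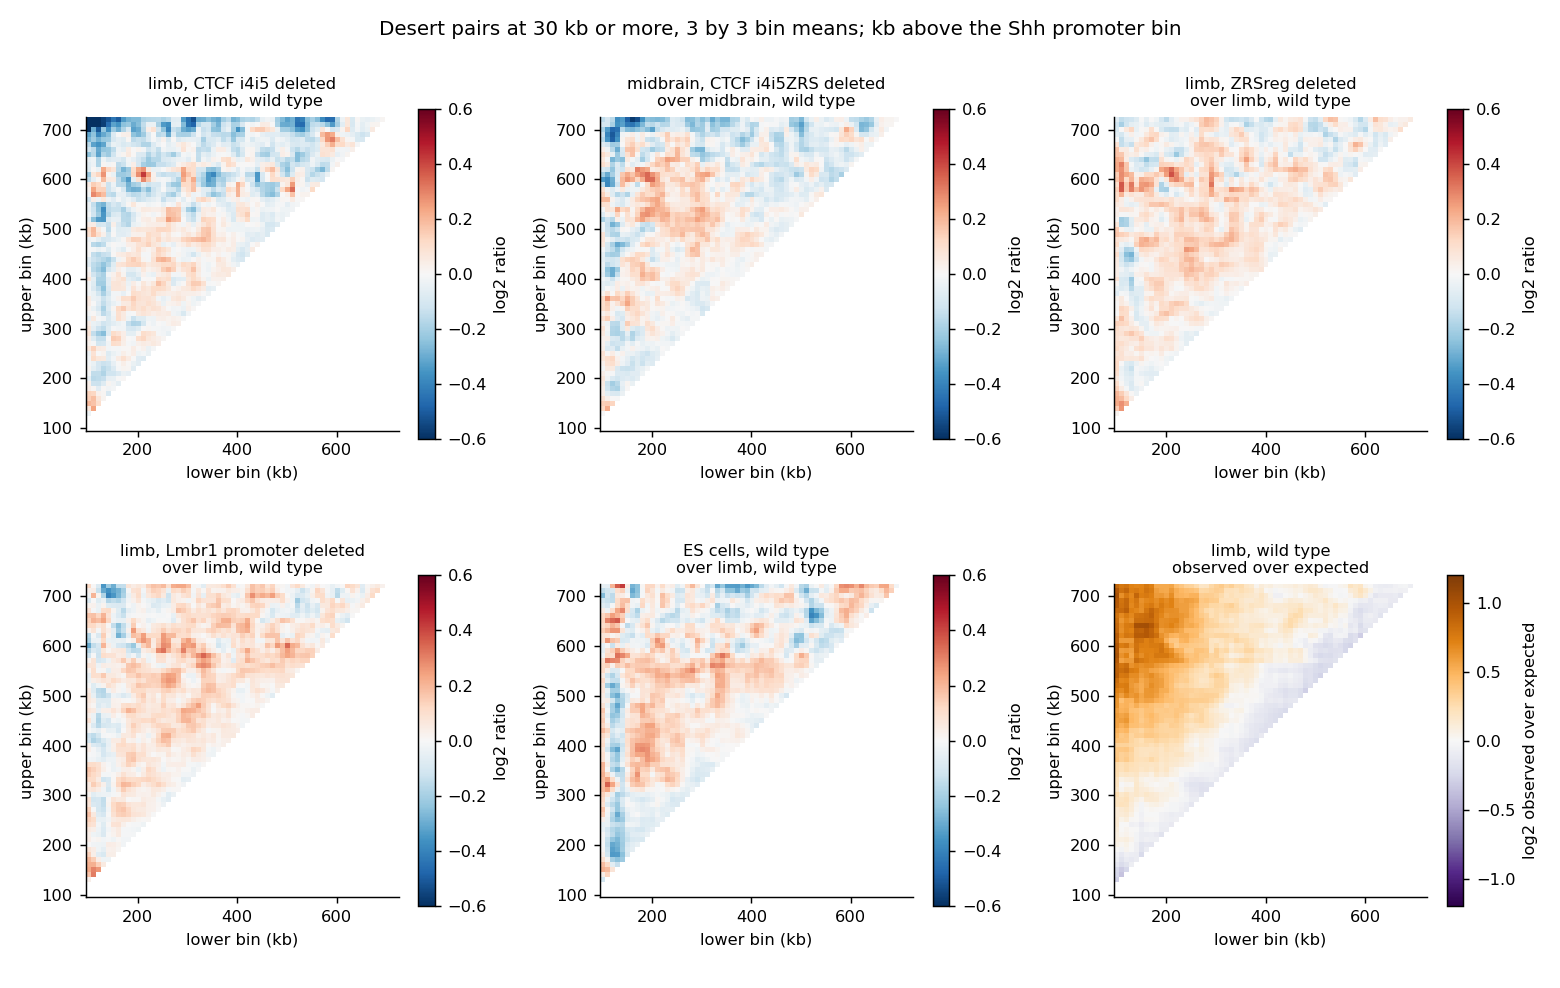
Log2 ratio of observed over expected between 2 maps (5 panels) and log2 observed over expected of wild-type limb (last panel) for desert pairs at 30 kb or more, as 3 by 3 bin means, with both bins in kb above the Shh promoter bin. The CTCF panels are lowest along the top edge near 700 to 720 kb, and the ES cell panel has a low stripe at 120 to 140 kb.

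The 2 deletions whose names do not include i4i5, ZRSreg and the Lmbr1 promoter, gave small and similar differences. Limb ZRSreg averaged 1.21 and wild-type limb 1.18 (log2 ratio 0.043, 0.030 to 0.055; 55 of 63 bins higher), and limb with the Lmbr1 promoter deletion averaged 1.22 and wild-type limb 1.18 (0.049, 0.037 to 0.061; 56 of 63 bins higher). The SD over bins was 0.036 for ZRSreg and 0.040 for the Lmbr1 promoter. Both ratios turned negative when signal was scaled to the map total, at -0.059 and -0.083. At 400 to 620 kb they were 0.037 (-0.005 to 0.079) for ZRSreg and 0.001 (-0.040 to 0.041) for the Lmbr1 promoter. In limb ZRSreg 1 desert pair (0.0546%) was past 1.2-fold lower and 1.09% were higher, against 3.65% and 2.76% of all pairs. With the Lmbr1 promoter deletion 0.601% were lower and 0.820% higher, against 4.34% and 4.7%. These were the 2 comparisons with wild-type limb in which the fewest pairs of the region passed the fold.

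The pairs with the largest differences between the wild-type maps, and for the ZRSreg and Lmbr1 promoter deletions, were spread over the desert. Several of them include a bin at 700 or 720 kb. As 3 by 3 bin means, picked for their size and so only a description, wild-type midbrain was lowest against limb for the bins at 590 and 700 kb (0.865 in midbrain and 1.14 in limb; log2 ratio -0.397, -0.693 to -0.1004; 199 and 321 contacts) and highest for 110 and 610 kb (2.03 and 1.52; 0.416, 0.071 to 0.761). ES cells were lowest against limb for the bins at 520 and 660 kb (0.823 in ES cells and 1.08 in limb; -0.396, -0.536 to -0.256) and highest for 140 and 720 kb (2.17 and 1.63; 0.418, 0.187 to 0.648). The second lowest pair in ES cells lay at 390 and 720 kb (0.848 in ES cells and 1.08 in limb, log2 ratio -0.346, -0.528 to -0.165). The third lowest, at 130 and 390 kb, belongs to the stripe near the Shh end (1.003 in ES cells and 1.25 in limb, log2 ratio -0.316, -0.493 to -0.139). Limb ZRSreg was lowest against wild-type limb for 130 and 450 kb (1.146 and 1.39; -0.281, -0.496 to -0.065) and highest for 210 and 610 kb (1.71 and 1.31; 0.381, 0.186 to 0.575). Limb with the Lmbr1 promoter deletion was lowest for 140 and 700 kb (1.39 and 1.83; -0.402, -0.659 to -0.145) and highest for 330 and 580 kb (1.34 and 1.05; 0.350, 0.141 to 0.558). In limb i4i5 the highest pair against wild type was also the one at 210 and 610 kb (1.76 and 1.31; 0.422, 0.175 to 0.669), where the shared wild-type map was low. Many of these pairs include a poorly covered bin between 580 and 610 kb, and its part in them was not tested.

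Bin by bin, the limb CTCF alleles were lowest against wild type at the upper end. The bin at 130 kb, at the Shh end, was also low in several maps. The bin at 720 kb (29510001 to 29520000) averaged 1.04 in limb i4i5 and 1.25 in wild-type limb over its desert partners (log2 ratio -0.265, -0.342 to -0.188), and it was the lowest of the 63 bins there. The bin at 700 kb was the lowest in limb i4i5ZRS, with 1.06 against 1.21 in wild-type limb (-0.1996, -0.287 to -0.112), and in limb i4i5ZRSreg, with 1.06 against 1.21 (-0.2003, -0.282 to -0.118). It was also the lowest in limb i4i5ZRSreg over limb ZRSreg, with 1.06 and 1.18 (-0.157, -0.244 to -0.071). In midbrain i4i5ZRS the lowest bin was the poorly covered one at 120 kb (1.18, against 1.36 in wild-type midbrain; -0.209, -0.376 to -0.041), and the bin at 710 kb had the same log2 ratio, -0.209 (-0.341 to -0.076). For limb ZRSreg the bin at 700 kb was the lowest too, but at -0.043 (-0.124 to 0.038), and for the Lmbr1 promoter deletion the lowest was the bin at 130 kb at -0.101 (-0.171 to -0.031).

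Comparisons among the mutant maps, which keep strain constant, were of the same size, and most of their directions depended on the scale. Limb i4i5ZRSreg averaged 1.16 and limb ZRSreg 1.21 (-0.060, -0.073 to -0.047), with 4 of 63 bins higher, and at 400 to 620 kb 1.502 and 1.648 (-0.133, -0.178 to -0.089; 3 of 23 separations higher; 0.014 with the expected value of the Shh domain). Here 3.11% of desert pairs were past 1.2-fold lower and 0 of 1830 higher, against 4.7% and 12.1% of all pairs. Limb i4i5ZRSreg and limb i4i5 averaged 1.16 and 1.14 (0.027, 0.011 to 0.043; 46 of 63 bins higher), with 1.31% lower and 2.95% higher against 6.4% and 4.58%. This ratio turned to -0.008 with the expected value of the Shh domain, -0.033 with signal scaled to the map total and -0.038 without balancing. Limb i4i5ZRS and limb i4i5 averaged 1.18 and 1.14 (0.044, 0.027 to 0.061; 56 of 63 bins higher), with 0.710% lower and 3.93% higher against 8.91% and 5.45%. It turned to -0.014, -0.078 and -0.003 on the same 3 scales. Midbrain i4i5ZRS and limb i4i5ZRS averaged 1.21 and 1.18 (0.039, 0.024 to 0.053; 55 of 63 bins higher), with 0.164% lower and 3.28% higher against 14.1% and 8.64%. It turned to -0.020 with the expected value of the Shh domain. That ratio between tissues, 0.039, is close in size to the 0.048 between the wild-type tissues; the difference between the 2 ratios was not tested. Limb i4i5, the map with the fewest contacts, had the lowest desert mean of the 9 against the region's mean, and the highest (1.055) with the expected value of the Shh domain.

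Across the 36 pairs of maps, the observed over expected values of the 1830 pairs had a Spearman correlation of 0.570 to 0.749 (median 0.702). After division by the desert mean at each separation the Pearson coefficient was 0.250 to 0.465 (median 0.366). The points share probes, restriction sites and separations, and the coefficients are descriptions only.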

How the data were processed

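Capture Hi-C reads of 19 samples were merged by the authors into 9 maps of balanced signal between 10-kb bins, as deposited, and the depth of single samples is not used here. Per the submitters' processing notes, cutadapt 1.15, Bowtie2 2.3.4.1, Juicer and SAMtools were used with build mm9. The rows of a balanced map sum to the same value. The contact counts and bin factors behind the signal were recovered from common steps of the values (100% of pairs whole within 0.01), and served for intervals, thinning and one alternative. Unlisted pairs counted as 0. Observed over expected, separation bands, 3 equal parts, bin means, contact across a bin and 3 by 3 bin means were computed with Python 3.11.15, numpy 2.4.6 and scipy 1.17.1, and drawn with matplotlib 3.10.9. Poisson intervals at 95% used the effective number of contacts. The 12 comparisons had 1 map a side, so no test was run. Code was tested on simulated data. The named bins are the highest and lowest of each map, and the named pairs the 3 highest and 3 lowest 3 by 3 means at 100 kb or more per map and comparison, 50 kb apart. Desert, lists and measures were chosen with earlier results of these data known.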

Additional observations from a re-analysis of the deposited data

How the results depend on the processing

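Without replicates, a value was held to have moved when it changed by more than the SD over bins (over separations at 400 to 620 kb), and a count when it changed by over 1.5 times. The desert mean moved under 2 of 9 alternatives. Unbalanced counts gave 1.42 (limb i4i5), 1.42 (i4i5ZRS), 1.38 (i4i5ZRSreg), 1.46 (ZRSreg), 1.43 (Lmbr1 promoter), 1.48 (midbrain i4i5ZRS), 1.49 (ES cells), 1.496 (wild-type midbrain) and 1.41 (wild-type limb), and the expected value of the Shh domain gave 1.04, 1.05, 1.05, 1.05, 1.03, 0.987, 1.03 and 1.04 in the same order without limb i4i5, where the change stayed within the SD.

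Log2 ratios between maps were smaller than these effects. With the expected value of the Shh domain the ratio of all desert pairs was -0.0094 (wild-type midbrain over limb), -0.073 (ES cells), 0.023 (limb i4i5), 0.015 (i4i5ZRSreg), -0.0021 (i4i5ZRSreg over ZRSreg), -0.0077 (i4i5ZRSreg over i4i5), -0.014 (i4i5ZRS over i4i5) and -0.020 (i4i5ZRS, midbrain over limb). With total scaling it was -0.036 (wild-type midbrain over limb), -0.116 (i4i5ZRS), -0.071 (i4i5ZRSreg), -0.059 (ZRSreg), -0.083 (Lmbr1 promoter), -0.012 (i4i5ZRSreg over ZRSreg), -0.033 (i4i5ZRSreg over i4i5) and -0.078 (i4i5ZRS over i4i5). With unbalanced counts it was 0.079 (ES cells), 0.0060 (i4i5), -0.038 (i4i5ZRSreg over i4i5) and -0.0031 (i4i5ZRS over i4i5), and without the outer 5 bins 0.0073 (i4i5ZRSreg). At 400 to 620 kb the expected value of the Shh domain gave -0.013 (wild-type midbrain over limb), -0.128 (ES cells), 0.050 (i4i5), 0.036 (i4i5ZRSreg), 0.014 (i4i5ZRSreg over ZRSreg), -0.010 (i4i5ZRS over i4i5) and -0.054 (i4i5ZRS, midbrain over limb). Total scaling gave -0.187 (ES cells), -0.160 (Lmbr1 promoter) and -0.132 (i4i5ZRS over i4i5), and the desert without its outer 5 bins -0.010 (wild-type midbrain over limb) and 0.068 (midbrain i4i5ZRS). The cause of these turns was not tested. For the bins at 700 to 720 kb with the lower part, the 4 CTCF ratios to wild type stayed negative under all 7 alternatives run, from -0.063 to -0.431. The sign alone does not set the CTCF maps apart. Over wild-type limb the ratio was also negative for ZRSreg (-0.033, and -0.040 with the expected value of the Shh domain), the Lmbr1 promoter (-0.029 and -0.026) and ES cells (-0.036 and -0.193). It was positive for wild-type midbrain (0.076 and 0.008).

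Counts of desert pairs past the fold depended on the averaging. With 5 by 5 bin means, lower pairs numbered 44 (i4i5), 23 (i4i5ZRS), 23 (i4i5ZRSreg), 9 (midbrain i4i5ZRS), 21 (i4i5ZRSreg over ZRSreg), 1 (i4i5ZRSreg over i4i5) and 0 in the other 6 comparisons, and higher pairs 1 (wild-type midbrain), 1 (ES cells), 1 (i4i5ZRSreg over i4i5), 4 (i4i5ZRS over i4i5), 29 (i4i5ZRS, midbrain over limb) and 0 in the other 7. Past 1.5-fold, 7 pairs were lower in limb i4i5 and 0 passed in any other comparison or direction. Leaving out the 7 bins with low coverage in every map (at 120, 580, 590, 600, 610, 630 and 710 kb), an alternative chosen after seeing the data, moved no desert mean or ratio. Single samples could not be left out, since the files hold merged maps. No paired analysis was possible because each group has 1 merged map. Depth limits single pairs, of which the median held 48 contacts in limb i4i5.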
